A study of Mus musculus with 35 samples.

Results

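The difference between SOD1G93A and wild-type (WT) motoneurons that is shared by week 11, a presymptomatic age, and week 15, a symptomatic age, was measured in 28 of the 35 mice of the study. These were the mice that had not received the growth factor G-CSF. For each probe set, the expression in SOD1 mice minus that in WT mice was averaged over both weeks, with week as a covariate. All 34958 of the 45101 probe sets that name 1 gene were considered, and 25589 of them, for 14257 genes, passed a filter on low and flat values and were tested.

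At week 11 there were 6 WT and 8 SOD1 mice, and at week 15 there were 7 of each. The SOD1 mice were hemizygous females of the strain B6.Cg-Tg(SOD1-G93A)1Gur/J, on a C57BL/6 background. They carried a transgene with many copies of mutant human SOD1 that is active in most cell types. The WT mice, labelled C57BL/6J, were littermates without the transgene. The SOD1 mice of week 15 had carried a minipump with vehicle since week 11. Whether their WT controls carried one is not given in the sources used here, so pump and genotype cannot be told apart at that age. The week likewise cannot be told apart from the cohort. Each array held amplified RNA of 300 motoneurons cut by laser from the lumbar spinal cord of 1 mouse. P-values therefore measure the spread between mice.

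Motoneurons degenerate in amyotrophic lateral sclerosis (ALS), and mutant SOD1 causes a familial form of it. A neuron whose axon is damaged switches on transcription factors such as Atf3 and Jun and, through them, proteins of axon growth and secreted peptides. Cells short of amino acids or burdened with misfolded protein activate the integrated stress response, in which the factor Atf4 raises the genes of amino acid synthesis and uptake and the factor Ddit3 (CHOP).

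Neurofilament transcripts stood high on these arrays, at a mean log2 intensity of 11.99 for Nefl and 12.31 for Nefh, whereas Chat, the enzyme that makes acetylcholine, was dim at 3.17, close to the array medians of 3.19 to 3.47. The 18S ribosomal RNA control read 9.48 in WT and 10.3 in SOD1 mice at week 11 and 11.8 and 11.0 at week 15 (means). Arrays of 3 mice stood apart from their groups, those of WT mouse 6 of week 11 and of SOD1 mice 3 and 5 of week 15. In such dissected material, fewer cells of a type and less RNA per cell cannot be told apart.

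Averaged over both weeks, 517 probe sets of 451 genes were called, 236 higher and 281 lower in SOD1 mice. A call needed p under 0.05 in limma, under 0.1 once adjusted after Benjamini and Hochberg, and a difference of at least 1.5-fold. These calls are 2.02% of the probe sets tested, with 0.922% higher and 1.1% lower. Without the array of WT mouse 6 of week 11 they numbered 817, of which 535 were lower. Most of these calls were also made at week 15. In the fit to all 28 arrays, the contrast of week 11 called 367 probe sets (1.43%) and that of week 15 called 1924 (7.52%). Fits to the arrays of each week alone called fewer, 264 and 1054. By the contrasts of all 28 arrays, 348 of the 517 were called at week 15 but not at week 11. A further 56 were called at week 11 but not at week 15, 52 at each week and 61 at neither. Still, 515 of the 517 had the same sign at both weeks, which the averaging favours, and 236 differed at least 1.5-fold the same way at each. The effects of the weeks differed from each other (interaction, adjusted p under 0.1) for 61 of the 517, against 1017 probe sets, or 3.97%, of all those tested.

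Probe sets at which both weeks passed together were few. A joint test, which takes the larger of the p-values of the weeks and adjusts it over all probe sets, passed 9 probe sets of 8 genes (0.0352% of those tested). A looser count, of probe sets called separately at each week with the same sign, gave 52 probe sets of 45 genes (0.203%), 32 genes higher and 13 lower. For 13 probe sets (0.0508%) no SOD1 mouse overlapped with any WT mouse of its week at either age, in the same direction. These were for Atf3, Phgdh at a pair of probe sets, Fgf21, Ddit3, Camk1, Psat1, Chac1, Cstb, Atf4 and Psmc4, all higher, and for Ldoc1 and Ighm, both lower. Over all probe sets the effects of week 11 and week 15 had a Pearson r of 0.001 and a Spearman rho of -0.083, across probe sets, which are not independent, and measured in separate mice. Without the 3 arrays that stood apart r was 0.17 and rho 0.092, and with array weights r was 0.13.

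**Figure D1:**
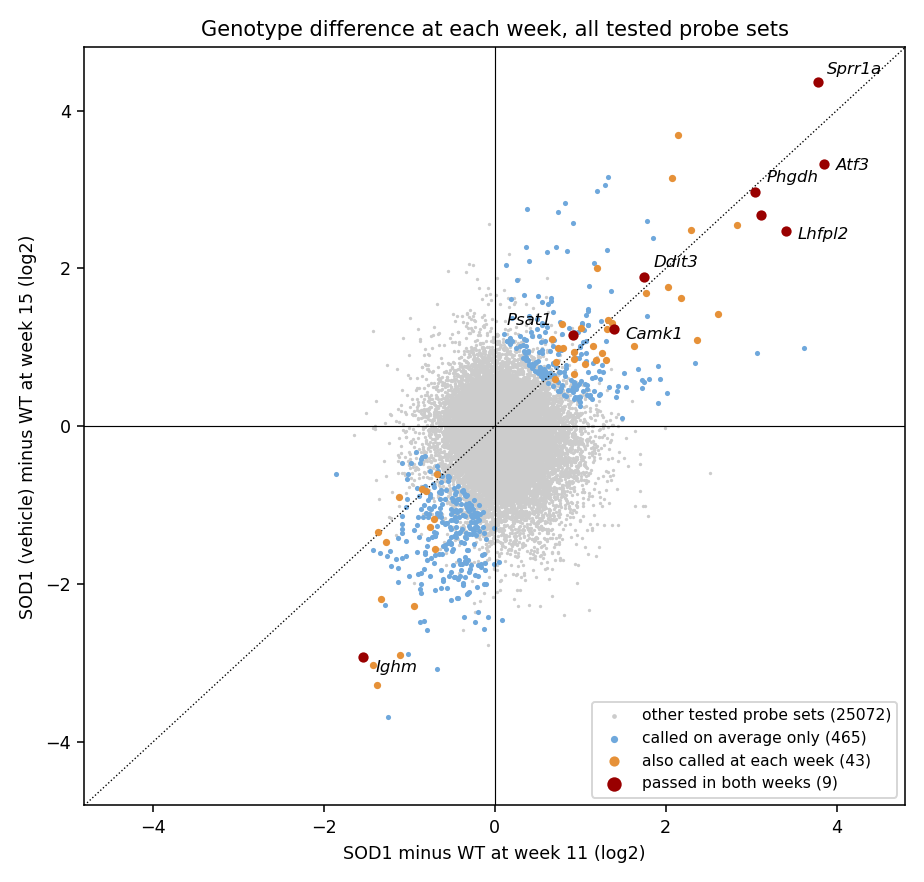
SOD1 minus WT difference in log2 intensity at week 11 (x axis) and at week 15 (y axis), 1 point per tested probe set naming 1 gene. Colours mark probe sets called on average but not at both weeks (465). They also mark those called at each week without passing the joint test (43) and those that passed it (9). Over all points r is 0.001 (0.17 without the 3 arrays that stood apart). The 9 joint calls lie off the origin in the quadrants of equal sign, which the joint test requires.

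The largest averaged increases were of axon injury genes, Sprr1a, a small proline-rich protein that axotomised neurons make, and the transcription factor Atf3. Sprr1a was 16.8-fold higher in SOD1 motoneurons. At week 11 the WT mice had log2 intensities of Sprr1a from 2.67 to 3.06 with a median of 2.81, and the SOD1 mice from 2.69 to 8.97 with a median of 6.91. At week 15 the WT mice lay between 2.54 and 3.55 (median 2.85) and the SOD1 mice between 5.85 and 8.08 (median 7.35). A single SOD1 mouse of week 11, mouse 2, fell into the WT range, and all other SOD1 mice were above every WT mouse of their week. The averaged difference of Sprr1a was 4.07 ± 0.42 on the log2 scale (SE, adjusted p = 9.9e-07, limma), with 3.78 ± 0.61 at week 11 and 4.36 ± 0.60 at week 15. Since WT values sat near the floor of the arrays, this fold is hard to size.

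For Atf3 the WT mice of week 11 lay between 3.14 and 4.05 (median 3.53) and the SOD1 mice between 4.71 and 8.56 (median 7.61). At week 15 the corresponding ranges were 2.37 to 3.81 (median 3.30) and 4.84 to 7.57 (median 6.83). No SOD1 mouse overlapped with WT at either week. The difference was 3.58 ± 0.30 on average (adjusted p = 1e-08, limma), 3.85 ± 0.43 at week 11 and 3.32 ± 0.42 at week 15.

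Stress response and serine synthesis genes were also higher. Ddit3, the CHOP factor of the stress response, was 3.53-fold higher. Its log2 intensity was 6.31 to 6.85 in WT (median 6.53) and 7.46 to 9.27 in SOD1 mice (median 8.25) at week 11. At week 15 it was 5.69 to 6.52 (median 6.19) and 7.63 to 8.63 (median 7.74). The groups were separated at both ages and the effect was nearly the same at each, at 1.74 ± 0.21 and 1.90 ± 0.21 (average 1.82 ± 0.15, adjusted p = 4.6e-09, limma). A second, weaker probe set of Ddit3 differed by 0.36 and was not called.

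Phgdh, the enzyme of the initial step of serine synthesis, had the smallest p-value of the averaged comparison. At week 11 its leading probe set read 3.47 to 5.34 in WT (median 4.87) and 6.97 to 8.57 in SOD1 mice (median 7.63). At week 15 it read 5.41 to 6.27 (median 5.88) and 7.79 to 9.76 (median 8.78). WT and SOD1 mice were well apart at each age, although both genotypes read higher at week 15. The average difference was 3.01 ± 0.20, or 8.05-fold (adjusted p = 1.5e-10, limma), and the weeks gave 3.05 and 2.97. Of the other probe sets of Phgdh, those differing by 2.90 and 0.81 were called and that differing by 0.44 was not, so the size of the increase depends on the probe set. Psat1, the enzyme of the next step, was bright in every mouse. It rose from 8.28 to 9.53 in WT (median 9.03) to 9.54 to 10.16 in SOD1 mice (median 9.95) at week 11, and from 8.49 to 9.22 (median 8.90) to 9.58 to 10.41 (median 10.20) at week 15. The groups touched closely at week 11 without overlapping, and the average difference was 1.04 ± 0.12, or 2.05-fold (adjusted p = 5.8e-06, limma).

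Camk1, a calcium/calmodulin-dependent kinase, and Lhfpl2, a tetraspan membrane protein, were the other genes that rose in the joint test. Camk1 was 2.48-fold higher, with 5.63 to 6.94 in WT (median 5.83) against 7.12 to 8.12 in SOD1 mice (median 7.42) at week 11, and 4.55 to 6.23 (median 5.92) against 6.61 to 7.73 at week 15. The groups did not overlap. A second, dim probe set was also called on average (0.74), with 1.14 at week 11 and 0.35 at week 15. Lhfpl2 was 7.66-fold higher at its leading probe set, with 2.74 to 5.04 in WT (median 3.84) against 6.54 to 8.45 in SOD1 mice (median 7.35) at week 11. At week 15 it read 3.29 to 5.18 (median 4.54) against 4.50 to 8.25 (median 6.77), and 1 SOD1 mouse, at 4.50, lay within the WT range. Of its other probe sets, 1 was called at 0.59 and 1 was not at 0.51. The averaged differences were 1.31 ± 0.17 (adjusted p = 2.4e-05) for Camk1 and 2.94 ± 0.33 (adjusted p = 4e-06) for Lhfpl2 (limma).

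The single gene that fell in the joint test was Ighm, the constant region of the immunoglobulin M heavy chain. WT mice of week 11 read 9.63 to 10.6 (median 10.13) and SOD1 mice 7.65 to 9.42 (median 8.33). WT mice of week 15 read 10.52 to 11.34 (median 11.07) and SOD1 mice 6.69 to 8.88 (median 8.59). No SOD1 mouse reached the WT range at either age. The difference of Ighm was -2.24 ± 0.24 on average (adjusted p = 2.4e-06, limma), -1.54 at week 11 and -2.92 at week 15, and the effects of the weeks differed from each other (interaction, adjusted p = 0.0911). A second bright probe set was also called lower, at -2.23, and 2 dim ones were not called. Ptprc, the other lymphocyte marker tested, was dim at 2.78 and was not called. For the other 7 genes of the joint test the interaction did not pass (adjusted p from 0.43 for Lhfpl2 to 0.936 for Phgdh).

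**Figure D2:**
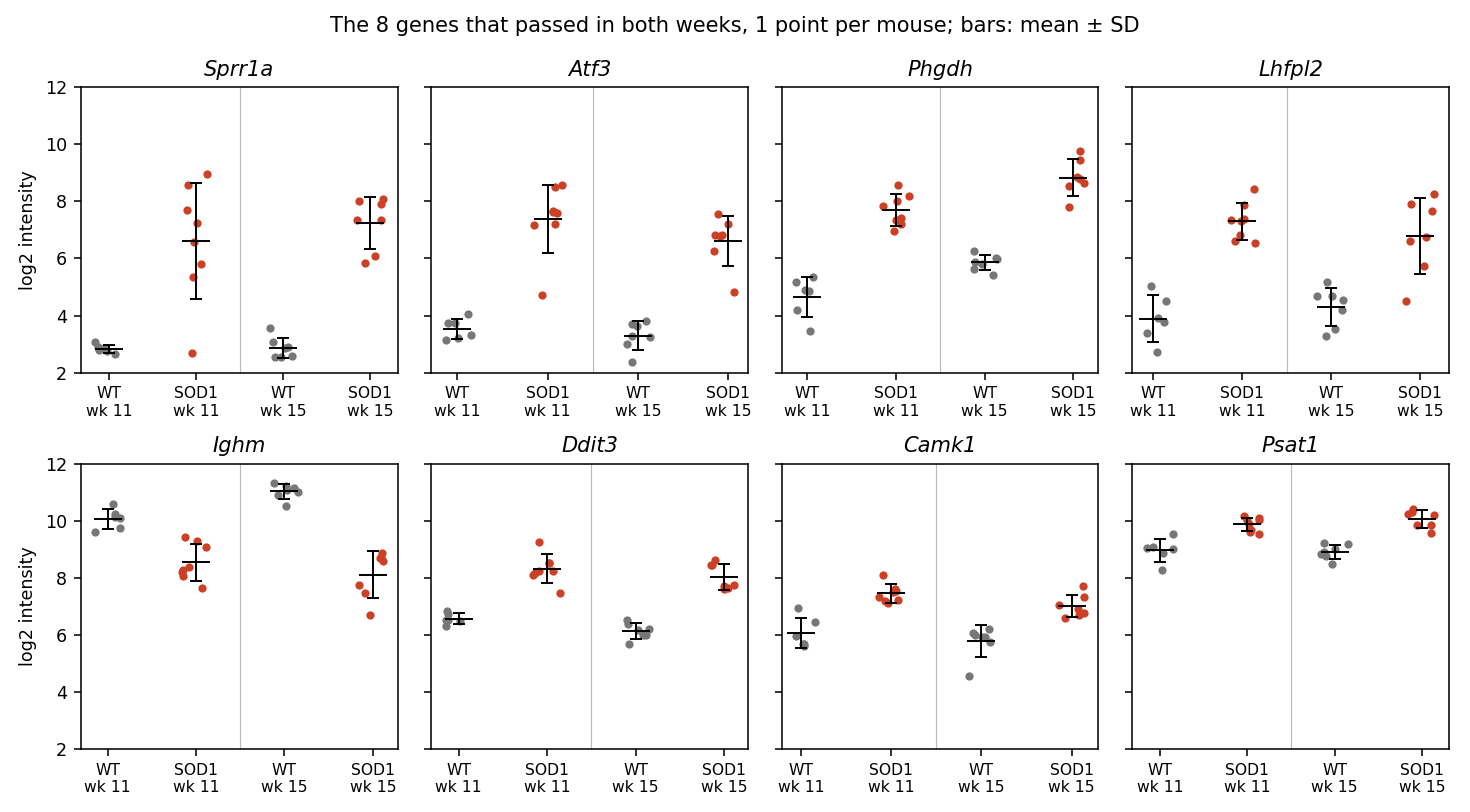
Log2 intensity (y axis) of the 8 genes of the joint test in every WT and SOD1 mouse of week 11 and week 15 (x axis), with 1 point per mouse and the mean and SD of each group drawn over the points. SOD1 mice sit above WT at 7 genes and below at Ighm. They overlap with WT mice only at Sprr1a, by 1 mouse of week 11, and at Lhfpl2, by 1 mouse of week 15.

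Without the 3 arrays that stood apart, 18 probe sets passed the joint test, 7 of the 8 genes among them and Lhfpl2 not. Joint calls depended on the mice to unequal degrees. With each of the 28 mice left out in turn, Sprr1a, Atf3, Phgdh and Ddit3 passed every time, Psat1 passed 26 times, Lhfpl2 25 times, Camk1 20 times and Ighm 17 times. The averaged calls of all 8 genes held in all 28 fits. Among the genes just outside the threshold, at an adjusted p of 0.107 in the joint test, were Cstb at a pair of probe sets, Tmem255a, Ccn3, Shmt2 and Chac1.

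A set of 3 short motifs bound by factors of these responses were searched in the 250 bases before the RefSeq start of the genes called at each week, on both strands. They were TGATGNAA, the composite element of C/EBP and ATF factors, TGACGTCA, the cAMP response element, and TGANTCA, the AP-1 element. Of 32851 mouse promoters of the same length, 3.45%, 1.55% and 6.75% hold them. Of the 32 higher genes 26 had a promoter in the table, and 4 of them held the composite element, 3 the AP-1 element and none the cAMP response element. Of the 13 lower genes 12 had a promoter, and 1, Dnah2, held an AP-1 element. Genes were counted when any of their promoters held a motif, whereas the shares above are of single promoters. Csrnp1, the higher gene with AP-1 elements beside Sprr1a and Ddit3, held them in a single promoter of several. In each of Atf3, Fgf21, Nupr1 and Chac1 the composite element was read from the opposite strand as TTGCATCA, at 110, 139, 110 and 193 bases before the start. Sprr1a held a pair of AP-1 elements, at 146 and 116 bases, and Ddit3 held 1 at 242 bases. These are matches of letters and not binding sites. The promoters of those 4 genes and of Sprr1a and Ddit3 are printed with the matches in capitals (RefSeq, GRCm38.p6), and Fgf21, Nupr1 and Chac1 were chosen because they share the element of Atf3.
Sprr1a, chr3:92485882-92486131, minus strand: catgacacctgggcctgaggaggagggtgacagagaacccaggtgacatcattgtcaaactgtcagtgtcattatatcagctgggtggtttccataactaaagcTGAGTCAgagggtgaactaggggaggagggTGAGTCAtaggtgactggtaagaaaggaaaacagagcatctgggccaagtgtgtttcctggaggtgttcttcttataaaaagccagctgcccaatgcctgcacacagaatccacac
Atf3, chr1:191183334-191183583, minus strand: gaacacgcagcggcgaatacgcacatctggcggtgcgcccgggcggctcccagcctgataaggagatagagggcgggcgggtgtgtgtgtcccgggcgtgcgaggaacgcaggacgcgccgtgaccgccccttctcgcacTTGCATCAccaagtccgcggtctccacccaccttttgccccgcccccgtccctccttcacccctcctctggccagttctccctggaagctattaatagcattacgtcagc
Ddit3, chr10:127290543-127290792, plus strand: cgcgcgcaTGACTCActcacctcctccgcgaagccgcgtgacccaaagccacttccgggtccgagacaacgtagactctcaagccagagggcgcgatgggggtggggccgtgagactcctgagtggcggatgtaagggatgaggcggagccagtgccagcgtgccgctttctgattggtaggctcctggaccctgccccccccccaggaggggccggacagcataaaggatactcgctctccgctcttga
Fgf21, chr7:45615491-45615740, minus strand: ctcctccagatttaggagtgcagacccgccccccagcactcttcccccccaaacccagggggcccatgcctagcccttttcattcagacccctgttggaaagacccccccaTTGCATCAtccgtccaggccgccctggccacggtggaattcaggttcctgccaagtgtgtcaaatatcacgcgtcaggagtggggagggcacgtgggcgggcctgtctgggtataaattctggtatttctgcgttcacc
Nupr1, chr7:126625471-126625720, minus strand: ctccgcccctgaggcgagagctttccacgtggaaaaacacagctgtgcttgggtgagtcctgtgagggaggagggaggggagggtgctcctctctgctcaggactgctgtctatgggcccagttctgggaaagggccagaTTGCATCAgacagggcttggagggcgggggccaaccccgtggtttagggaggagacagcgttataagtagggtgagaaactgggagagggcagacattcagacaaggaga
Chac1, chr2:119350992-119351241, plus strand: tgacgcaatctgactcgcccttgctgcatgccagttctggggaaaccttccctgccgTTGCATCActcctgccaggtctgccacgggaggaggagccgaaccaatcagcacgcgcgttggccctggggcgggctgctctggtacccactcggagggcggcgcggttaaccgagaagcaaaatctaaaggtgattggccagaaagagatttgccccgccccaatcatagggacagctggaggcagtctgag

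Among the 37 further genes called at each week were more genes of the same responses. Fgf21, a secreted hormone of metabolic stress, rose by 2.01 on average, and by 2.61 at week 11 against 1.42 at week 15. Nupr1, a stress-induced chromatin protein, rose by 1.90, Slc7a3, a carrier of cationic amino acids, by 1.72, Chac1, which degrades glutathione, by 1.01, and Atf4 itself by 0.90. At this probe set of Atf4, 1 of the 8 SOD1 mice of week 11 lay above every WT mouse. The other probe set of Atf4, which separated the groups at both ages, rose by 0.79. Shmt2, which converts serine to glycine in mitochondria, rose by 1.34 and was called at 1 of its 4 probe sets. Of injury-related genes, Adcyap1, the precursor of the neuropeptide PACAP, rose by 2.39, Flnc, filamin C, by 1.73, and Ecel1, a peptidase induced by nerve injury, by 1.32. The beta-tubulin Tubb6 was 3.04-fold higher at 1 of its 2 probe sets, and the other was not called. The matrix protein Ccn3 rose by 2.69 (2.83 and 2.55 at the weeks).

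Lysosomal genes were called too. The protease Ctsb was 2.18-fold higher at 1 of its 5 probe sets, and its brightest probe set, at 0.57, was not called. In addition, the hexosaminidase subunit Hexa rose by 1.06, progranulin (Grn) by 0.89 and the cathepsin inhibitor Cstb by 0.94. The remaining genes that rose were Gfap, Lgals3, Rspo1, Akr1b8, Pmm1, Csrnp1, Eef1a1, Vgf, Scpep1 and Ddt. On average Gfap was called at 1 of its 3 probe sets, and Pmm1, Csrnp1 and Scpep1 at 1 of 2 each. Among the genes that fell were Chodl, a marker of fast motoneurons (-2.01), Itm2a, a membrane protein (-2.34), and the imprinted gene Mest (-1.62). Their falls were larger at week 15 than at week 11, at -2.89 against -1.11 for Chodl, -3.27 against -1.38 for Itm2a and -2.28 against -0.94 for Mest (interaction, adjusted p = 0.024, 0.0456 and 0.0376, limma). The other genes that fell were Ldoc1, Siah1a, Dnah2, Tmem255a, Dpp10, Wnk4, Atg4b, Hsd17b7 and Pigz. On average Siah1a and Atg4b were called at 1 of 3 probe sets, Dnah2 at 1 of 2, Tmem255a and Hsd17b7 at 2 of 4 and Pigz at 2 of 3.

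A SOD1 mouse of week 11, mouse 2, differed from its group. It lay inside the WT range of its week at 20 of the 45 genes, against 2 to 10 genes in the other 7 SOD1 mice of week 11 and 2 to 7 in those of week 15. Its log2 intensities of Sprr1a (2.69), Ccn3 (2.50), Lgals3 (3.37), Chodl (11.00) and Itm2a (10.88) lay within the WT range. Its Atf4 did so too, at the probe set that rose by 0.90 and not at the other. Its Adcyap1 (3.69) lay below every WT mouse of week 11. Yet its Atf3 (4.71), Phgdh (6.97), Ddit3 (8.25), Chac1 (8.45), Nupr1 (6.20), Fgf21 (5.10) and Hexa (9.37) were above every WT mouse of week 11. Its label was kept as given, and its genotype was not checked here, so every value of the SOD1 group of week 11 rests on that label. Without this mouse 24 probe sets of 21 genes passed the joint test, all 8 genes among them. The additional genes included Adcyap1, Ccn3, Chac1, Chodl, Itm2a, Lgals3 and Shmt2.

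**Figure D3:**
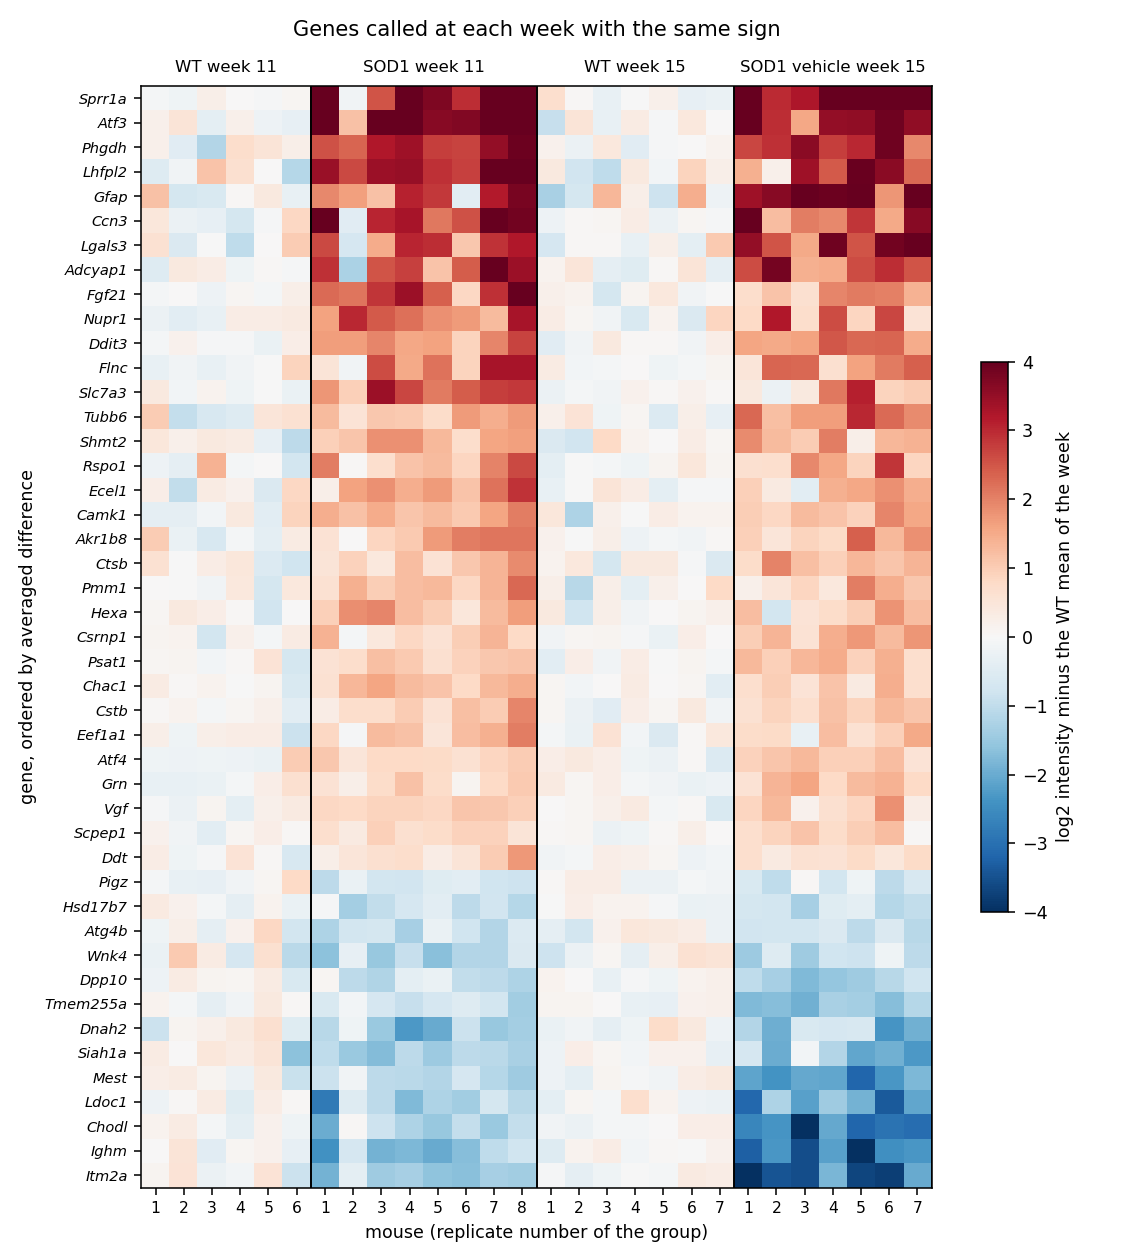
Log2 intensity of the 45 genes called at each week (rows) in each of the 28 mice (columns, by group), drawn as the difference from the mean of the WT mice of the same week, with colours ending at 4 in either direction. SOD1 mouse 2 of week 11 lies inside the WT range at 20 of the 45 genes, while the other SOD1 mice lie inside it at 2 to 10.

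Gene lists of pathways were read at the brightest filtered probe set of each gene, where 1.15% of all 14257 genes tested were called higher and 1.33% lower, and the median difference of all genes was 0.0071. Lists and members were chosen with earlier results of these data known, so their counts describe the lists and do not test enrichment. Transcription factors of axon injury were called higher in 4 of 13 (Atf3, Sox11 by 1.76, Csrnp1 by 1.04 and Jun by 0.59) with none lower. Jun stayed called in only 12 of the 28 fits that left out a mouse. The list of axon regeneration genes had 7 of 21 called higher, with none lower and a list median of 0.24. Among these 7 were Gap43 by 2.25, Gadd45a, a gene of growth arrest and DNA damage, by 1.57, and Stmn4 by 0.86, beside those named above. Of 19 neuropeptide genes 4 were higher, Adcyap1, Npy by 1.10, Gal by 1.08 and Vgf by 0.89, and none was lower. Npy stayed called in 17 of the 28 fits.

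Regulators of the integrated stress response were called higher in 7 of 18, with none lower and a median of 0.45. Beside Ddit3, Fgf21, Nupr1, Chac1 and Atf4 these were Trib3, by 1.07, and Cebpb, by 0.74. Of 14 genes of serine, one-carbon and amino acid synthesis all 14 had a positive difference and 6 were called, with a median of 0.52. The called genes were Shmt2, Cth by 1.15, Psat1, Phgdh, Psph by 0.78 and Aldh18a1 by 0.71, and Asns, the asparagine synthetase, at 0.27, was not called. Cth stayed called in 12 of 28 fits. Amino acid carriers were called higher in 4 of 12, Slc7a3, Slc7a5 by 1.15, Slc7a1 by 0.63 and Slc38a1 by 0.59, the last called in 15 of 28 fits. Of 18 aminoacyl-tRNA synthetases 17 had a positive difference and Wars, at 0.74, and Iars, at 0.62, were called. Sars was called at a dimmer probe set (0.75). Their median was 0.45 at week 11 and 0.06 at week 15.

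Other lists had few or no calls. Lysosomal genes were higher in 5 of 24, namely Hexa, Ctsz by 0.92, Grn, Cstb and Scpep1. Of 16 genes of metal and redox handling 3 rose, Akr1b8, Mt2 by 1.19 and Mt1 by 0.66, and the transferrin receptor Tfrc fell by 0.71. Of 14 p53 pathway genes Cdkn1a, the p21 cell-cycle inhibitor, rose by 1.29 and Perp was called lower. Tubulins were higher in 2 of 9, Tubb2b and, by 0.65, Tubg1, and Tubb6 was not in this list. Among trophic factors and receptors Ccn3, Rspo1 and Ngfr, at 0.66, rose in 3 of 22. Tfrc, Tubg1 and Ngfr stayed called in 8, 8 and 10 of the 28 fits. No gene of the lists of heat shock chaperones (14), proteasome subunits (31), respiratory chain (30) or antigen presentation (14) was called on average at its brightest probe set, and H2-D1, of the last list, was called at another (0.73). Of the 31 lists, 15 had a positive median at week 11 and a negative one at week 15, the chaperones (0.52 and -0.37), the proteasome (0.30 and -0.34) and the respiratory chain (0.26 and -0.14) among them. The mean SD over the probe sets of an array was 2.361 in SOD1 and 2.297 in WT mice at week 11, and 2.215 and 2.287 at week 15, and its part in these medians was not tested. Of 25 endoplasmic reticulum folding genes, Pdia3 fell by 1.16.

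In the lists of motoneuron, potassium channel and Hox genes every called gene was lower in SOD1 mice. Of 23 motoneuron genes 3 fell, Chodl, Prima1, which anchors acetylcholinesterase (-1.89), and Mmp9, a protease of fast motoneurons (-1.19). Of 25 potassium channel genes Kcnq5 (-2.48) and Kcna6 (-0.94) fell, and of 20 Hox genes Hoxc5 (-1.06) and Hoxb6 (-0.97). None of 11 general neuron markers was called. Of 20 cholesterol genes Hsd17b7, a synthesis enzyme, fell by 0.81 and Vldlr, a lipoprotein receptor, rose by 0.66, the latter called in 10 of 28 fits, and of 16 glycolysis genes the glucose carrier Slc2a1 rose by 0.63. Of 18 ALS-linked genes Atxn2 fell by 0.77. Mouse Sod1 itself was measured by 3 probe sets that differed on average by -0.42, -0.26 and 0.08, and none was called. The brightest, at 0.08 on average, changed sign, with 0.58 at week 11 and -0.42 at week 15 (interaction, adjusted p = 0.0522, limma). It was called at neither week. Whether the 3 probe sets detect the human transgene was not tested, so they do not check the genotype.

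Markers of other cells moved with genotype in part. Of 13 microglial genes 3 were called higher, Lgals3 by 2.62, Tyrobp by 1.84 and Lyz2 by 0.91, with list medians of 0.03 at week 11 and 1.05 at week 15. Lyz2 stayed called in 14 of the 28 fits that left out a mouse. The summed microglial intensity ranged from 8.71 to 9.77 (log2) in WT and 8.17 to 10.37 in SOD1 mice of week 11, and from 7.91 to 8.68 in WT and 9.03 to 11.15 in SOD1 mice of week 15, where the ranges did not overlap. The defining marker Aif1 was dim at 2.23, below the 20th centile of the arrays. Of 12 astrocyte genes only Gfap, an intermediate filament of astrocytes, rose, by 2.93 (2.14 and 3.70 at the weeks) at 1 of its 3 probe sets. The summed astrocyte intensities overlapped at both ages. None of 9 oligodendrocyte and 9 endothelial genes was called. Complement gave C1qb higher by 1.07 and Cd55 lower (-1.03), of 8 genes. Of 9 interneuron genes Pvalb rose by 0.73 and Slc32a1 by 0.62, the latter called in 24 of 28 fits. The part of other cells in the averaged differences was not tested.

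**Figure D4:**
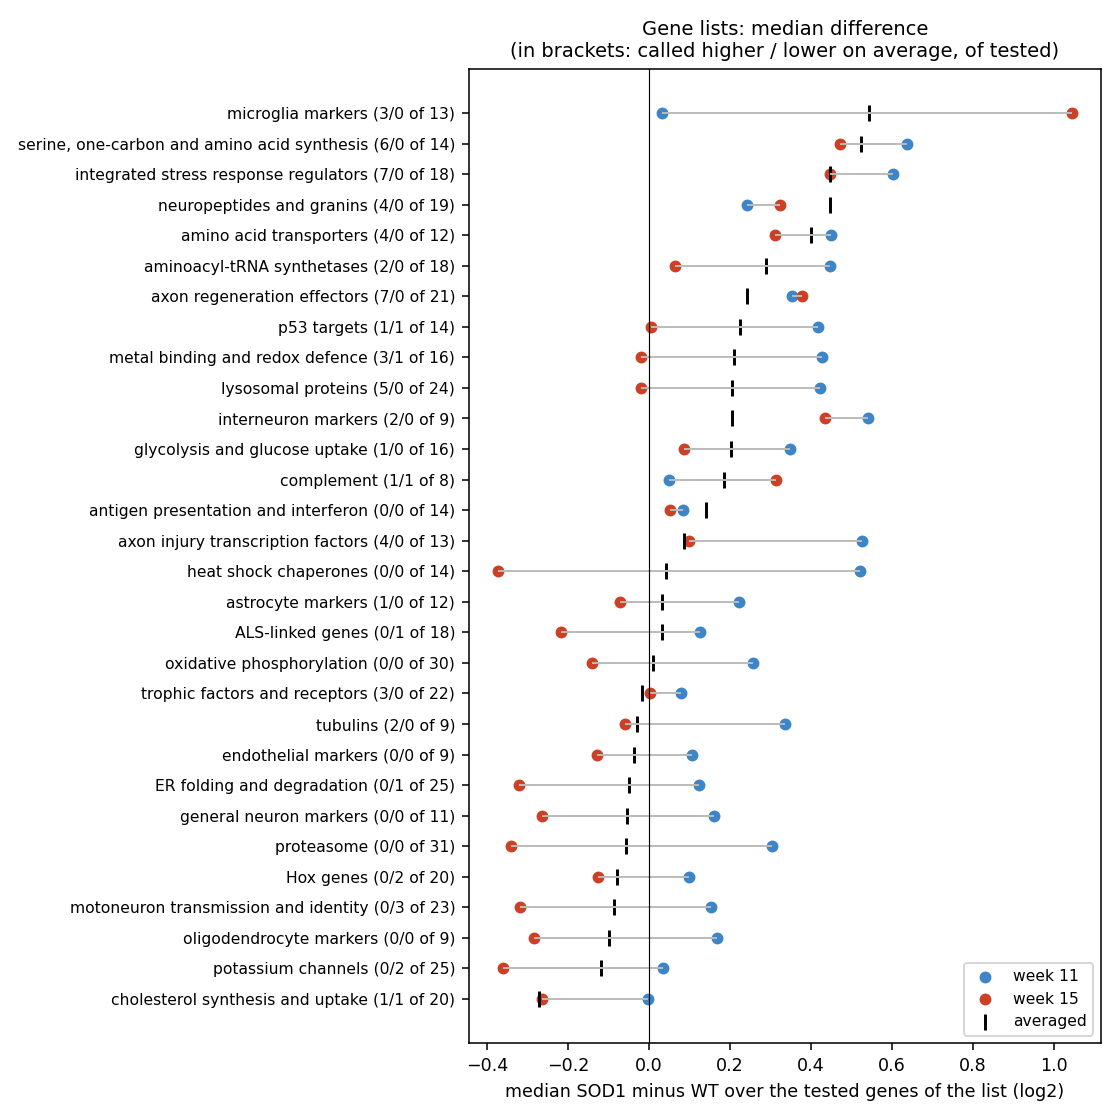
Median SOD1 minus WT difference in log2 intensity (x axis) of each gene list (y axis) at the brightest probe set per gene, at week 11, at week 15 and averaged, without the lymphocyte list, of which 2 genes were tested. The lists of the stress response and of serine, one-carbon and amino acid synthesis have positive medians at both weeks. In contrast, 15 of all 31 lists, such as those of chaperones and the proteasome, are positive at week 11 and negative at week 15.

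Probe sets called at 1 of the weeks were also read in the other. Of the 314 probe sets called higher at week 11, 53.2% were also positive at week 15. An unadjusted p under 0.05 was passed by 19.1% the same way, against 7.96% the opposite way. Among all tested probe sets positive at week 11, 44.8% kept their sign, 8.18% passed the same way and 13.7% the opposite way. Of the 1440 called lower at week 15, 49.7% were also negative at week 11 and 6.39% passed the same way, against 4.86% the opposite way. Among all those negative at week 15, 42.6% kept their sign, 3.91% passed the same way and 8.62% the opposite way. For the 53 called lower at week 11 and the 484 called higher at week 15, 64.2% and 61.8% kept their sign in the other week. The 53 passed in 37.7% the same way and 0% the opposite way, and the 484 in 21.1% and 2.89%. Among all those negative at week 11 the shares were 44.6% of equal sign, 11.5% and 9.07%. Among all those positive at week 15 they were 46.7%, 6.82% and 4.53%. A further 6 probe sets were called at each week with opposite signs, higher at week 11 and lower at week 15. They were for the kinase Dstyk (1.28 and -1.25), Magee1 (1.23 and -0.97), the selenoprotein Selenot (higher at week 11, -1.24 at week 15), nucleolin Ncl (1.13 and -0.89), Spag7 (1.07 and -0.69) and the splicing protein Snrpd3 (0.90 and -0.69), with an interaction adjusted p of at most 0.0289. Of all probe sets 44.7% had the same sign at both weeks, and 52.1% without the 3 arrays that stood apart.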

How the data were processed

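Lumbar motoneurons were laser-dissected, and their RNA was amplified in consecutive T7 rounds and hybridized to mouse genome arrays. Normalization by the authors used GCRMA (Affymetrix Expression Console, version not stated in the sources used), and the deposited values are log2 intensities of 45101 probe sets. The filter of the methods, computed over all 35 arrays, kept 31352 probe sets, with values over the 20th centile (2.40) on 4 arrays or more and an SD not under the 30th centile (0.241).

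limma 3.58.1 (R 4.3.3) was fitted to the 28 arrays with week and genotype as terms, and with 1 mean per group for each week, the interaction and the joint test. P-values were adjusted over all 31352. Text names the genes of the joint test, those called at each week and called list members; other named genes were chosen after their values were seen. Members and lists were chosen with earlier results of these data known. The code was tested on simulated data. Python 3.11.15, pandas 2.3.3, numpy 2.4.6 and matplotlib 3.10.9 made tables and figures. RefSeq promoters are of GRCm38.p6. Alternatives were other thresholds, filters, normalization, array weights, covariates and each mouse left out. The G-CSF comparisons and the quantitative PCR were not analysed here.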

Additional observations from a re-analysis of the deposited data

Results flagged for a closer look

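Of 180 groups of mice at the 45 genes called at each week, 11 held a mouse far from the others of its group, where chance gives about 1 in 20. SOD1 mouse 2 of week 11 read 4.71 for Atf3 (others 7.17 to 8.56), 2.5 for Ccn3 (others 5.08 to 7.08) and 10.88 for Itm2a (others 9.4 to 9.96), log2. WT mouse 6 of week 11 read 5.72 for Flnc (others 4.53 to 4.82), 6.09 for Siah1a (7.75 to 8.27), 6.53 for Chac1 (7.12 to 7.46), 10.05 for Atf4 (8.77 to 8.85) and 7.61 for Pigz (6.46 to 6.87). WT mouse 3 of week 11 read 4.78 for Rspo1 (2.64 to 3.4), WT mouse 5 of week 11 6.74 for Hexa (7.5 to 7.88) and WT mouse 2 of week 15 4.55 for Camk1 (5.77 to 6.23).

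The SOD1 effect differed between the weeks (interaction, adjusted p under 0.1, limma) for 5 of the 45 genes, each lower in SOD1 mice and more so at week 15. The effect of week 15 minus that of week 11 was -1.38 for Ighm, -1.89 for Itm2a, -1.78 for Chodl, -1.33 for Mest and -0.85 for Tmem255a.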

How the results depend on the processing

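The averaged comparison called 517 probe sets (236 higher, 281 lower) and the joint test 9. The joint test passed 5 with all 35 arrays (4 of its 8 genes), 17 after quantile normalization, 30 with array weights, 17 with a covariate for RNA quality, 18 without the 3 arrays that stood apart and 16 without WT mouse 6 of week 11. Of the 8 genes, quantile normalization and the fit without 3 arrays kept 7 each, and array weights, the RNA quality covariate and the fit without WT mouse 6 of week 11 kept all. A fold of 1.2 gave 785 calls, 388 higher. An adjusted p under 0.05 left 179 lower. A fit to the arrays of week 11 alone gave 264 calls, 45 lower, and a fit to those of week 15 alone 1054, 789 lower. The contrasts of the fit to all 28 arrays gave 367 and 1924. By these contrasts, the count called at each week with the same sign was 52. With each mouse left out, the calls numbered 407 to 817, 187 to 282 higher and 208 to 535 lower, and the joint test passed 6 to 24. The upper ends came without WT mouse 6 of week 11 for all calls and lower ones, and without SOD1 mouse 2 of week 11 for the joint test. Over the 28 fits, 73 of 87 named genes kept their averaged call, and 14 lost it at least once, Ddt without SOD1 mouse 8 of week 11, Iars without WT mouse 1 of week 15, and Pigz and Slc7a1 without WT mouse 6 of week 11 among them. Replicate numbers do not pair the mice (13 same-number pairs, r from -0.125 to 0.0964), and a replicate block gave 374 calls, 167 higher and 207 lower, with 10 in the joint test, 7 of the 8 genes among them and Psat1 not. No named gene reversed. The number of arrays and the dim floor of GCRMA limit precision and folds.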

Other observations

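The 7 G-CSF-treated SOD1 mice of week 15 entered no comparison of the report. At the 8 genes of the joint test their log2 intensities ranged from 2.97 to 7.66 for Sprr1a (median 6.99), 2.89 to 7.21 for Atf3 (5.77), 5.57 to 9.56 for Phgdh (8.83), 2.99 to 7.95 for Lhfpl2 (7.19), 7.58 to 8.34 for Ddit3 (7.75), 5.69 to 7.49 for Camk1 (7.04), 8.77 to 10.38 for Psat1 (10.01) and 6.52 to 11.12 for Ighm (8.09).

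A single G-CSF mouse, mouse 1, accounted for the lowest Sprr1a, Atf3, Phgdh, Lhfpl2, Camk1 and Psat1 and for the highest Ighm of that group. It lay inside the range of the WT mice of week 15 at 27 of the 45 genes, against 3 to 8 genes in the other 6 G-CSF mice. Its Ddit3, at 7.70, was above every WT mouse, and its Chodl, at 11.32, and Itm2a, at 11.33, were higher than in any other G-CSF mouse. Its label was kept as given, and its genotype and treatment were not checked here.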
